A study of Mus musculus with 3 samples.

Results

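The genes of prostaglandin and leukotriene synthesis followed here in chromatin-associated RNA of mouse macrophages were Pla2g4a, Ptgs1, Ptgs2, Ptges, Ptges2, Ptges3, Tbxas1, Alox5, Alox5ap and Lta4h. They were taken as a fixed list of symbols, and all 10 were found among the 55536 annotated genes of the deposited tables. The cells were bone-marrow-derived macrophages of strain C57BL/6J, that is, marrow cells grown into macrophages in culture. All of them received Lipid A, the membrane anchor of bacterial lipopolysaccharide and a ligand of Toll-like receptor 4, at 100 ng/ml for 20 min. The 3 libraries form 1 group, were made from separate biosamples that point to 1 donor entry, and started from 1000 ng (replicate 1), 250 ng (replicate 2) and 500 ng (replicate 3) of RNA. Age and sex were not recorded. Cells without Lipid A were not analysed here, so every value below is a level at 20 min of treatment, not a response to it. The RNA was that bound to chromatin, which holds much RNA still being transcribed, and it was depleted of ribosomal RNA before sequencing.

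Eicosanoids are signalling lipids made from arachidonic acid. Cytosolic phospholipase A2 (Pla2g4a) frees the acid from membranes. The cyclooxygenases Ptgs1 and Ptgs2 turn it into prostaglandin H, from which terminal synthases make prostaglandin E (Ptges, Ptges2, Ptges3) or thromboxane (Tbxas1). In the other branch Alox5, helped by the membrane protein Alox5ap, makes leukotriene A, and Lta4h turns that into leukotriene B. Macrophages are known for using both branches, and Ptgs2 is a textbook early gene of inflammatory activation, whereas Ptgs1 is usually described as constitutive.

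Promoters of both cyclooxygenase genes are shown because of their levels. Summed over annotated transcripts, the 2 means were nearly the same, but the spread over the libraries differed widely. Each line holds the 250 bases before the annotated start and the first 30 from it on, from RefSeq (GRCm38.p6), 5′ to 3′ on the gene's strand, which is plus for both. Ptgs2 is at chr1:150099781-150100060 and Ptgs1 at chr2:36230176-36230455. Capitals mark matches to the searched motifs on either strand.
Ptgs2: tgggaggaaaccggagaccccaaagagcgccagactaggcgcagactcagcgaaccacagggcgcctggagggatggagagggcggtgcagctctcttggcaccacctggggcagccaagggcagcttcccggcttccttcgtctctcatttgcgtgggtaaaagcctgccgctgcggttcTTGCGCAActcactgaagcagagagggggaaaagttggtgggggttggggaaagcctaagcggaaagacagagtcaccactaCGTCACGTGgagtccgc
Ptgs1: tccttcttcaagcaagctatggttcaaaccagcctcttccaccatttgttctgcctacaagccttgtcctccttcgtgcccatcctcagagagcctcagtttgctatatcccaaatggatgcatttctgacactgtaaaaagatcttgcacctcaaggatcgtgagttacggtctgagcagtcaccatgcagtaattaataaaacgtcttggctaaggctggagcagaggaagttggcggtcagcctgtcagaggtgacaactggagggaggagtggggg
One motif was the site of C/EBP, a factor family active in myeloid cells, searched as TTGCNNAA. In Ptgs2 it lies at bases -69 to -62, where base 1 is the start. The core of the cyclic AMP response element (CRE) was searched as TGACG and lies at 14 to 18 of Ptgs2. It overlaps an E-box, a site bound by helix-loop-helix factors and searched as CACGTG, at 17 to 22. The site of AP-1, the Fos and Jun factor, was searched as TGANTCA, with no match in Ptgs2. The TATA box, which positions the polymerase, was searched as TATAAA, and the NF-kB site by its consensus. Neither was found in the bases of Ptgs2 shown above. Bases farther out on either side were not searched, and positions depend on the RefSeq start, so Ptgs2 may hold such sites elsewhere. Ptgs1 holds none of the 6 motifs. Among all 32841 promoters of the table, windows of this length hold the C/EBP letters in 10.4%, the CRE core in 19.9%, the E-box in 6.80%, the AP-1 site in 7.46%, the TATA box in 13.1% and the NF-kB site in 4.22%. Both the motif list and this window were chosen after the Ptgs2 promoter had been seen. The window searched first, the 250 bases before the start, holds only the C/EBP match in Ptgs2. Over that window the C/EBP letters occur in 9.57% of promoters. RefSeq promoters were at hand for 9 of the 10 genes. In the wider window Tbxas1 holds an AP-1 match at -61 to -55 and 2 overlapping TATA matches, at -13 to -8 and -11 to -6. Ptges2 holds an E-box, Ptges3 a CRE core, and the second start of Pla2g4a a TATA match at -200 to -195. Whether any of these TATA letters work as a TATA box was not tested. No match to the 6 motifs was found at Ptges, Alox5, Lta4h and the first start of Pla2g4a.

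Depth was 16317439, 16245280 and 12439931 expected counts in replicates 1, 2 and 3, and the limit set by a count of 0, 3 counts, amounts to 0.184 to 0.241 CPM (counts divided by the library total and scaled). Levels are given in TPM, a unit that divides reads by transcript length and so allows genes to be compared. TPM is shared out over all RNA of a library, and protein-coding genes held 15.8%, 18.0% and 24.7% of it in replicates 1, 2 and 3. The TPM of coding genes was therefore lifted in replicate 3, and comparisons of 1 gene between libraries are given in CPM with TMM scaling as well. All 10 macrophage markers, from Csf1r to Cd14, were at 1 TPM or more in every library.

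The members spanned the range from high to barely measured. Tbxas1 was the highest in every library, at 75.6 ± 15.2 TPM (SD, n = 3 here and below). Ptges had the lowest mean, 0.473 ± 0.150 TPM, but Ptges2 was lower in replicates 1 and 3, and with the authors' posterior mean TPM, another estimate in the same tables, Ptges was at 1.10 and Ptges2 at 1.02. Of the 10 genes, 7 were at or above 1 TPM in every library (70%), against 8942 of 22028 protein-coding genes (40.6%). The 3 others were Alox5, Ptges2 and Ptges. The median of the 10, as log2(TPM + 0.1), was 2.15, and that of all coding genes was -0.93. The list was chosen for its function but with earlier results of these data known, and these figures describe it without a test.

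**Figure D1:**
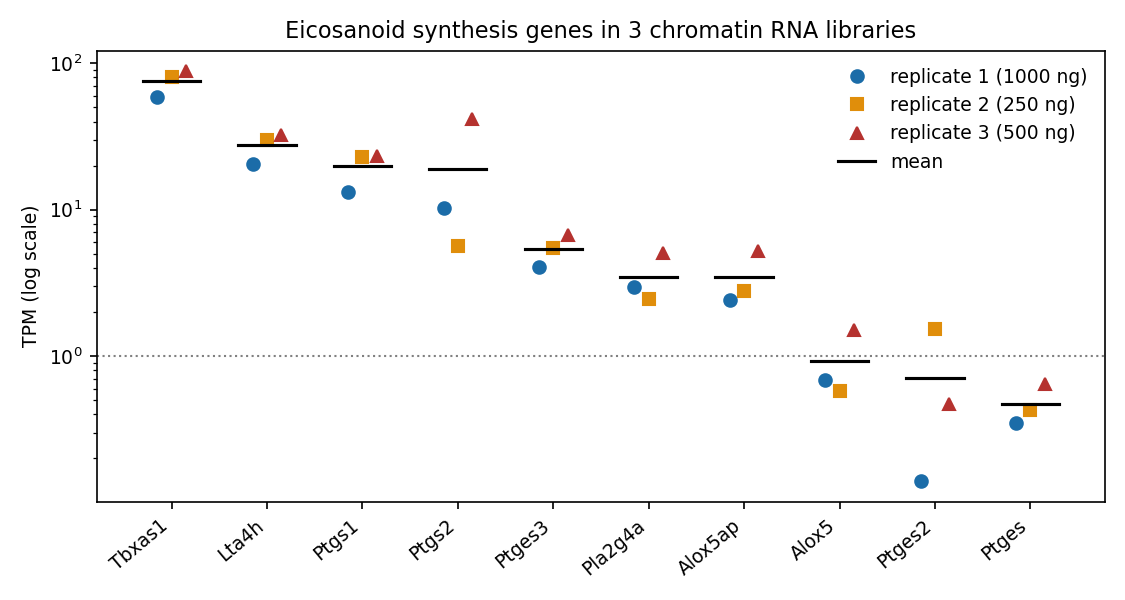
TPM (log scale) of the 10 genes in each library, ordered by mean; points are libraries, bars are means of 3, and the dotted line is 1 TPM. Tbxas1 lies above all others in every library, and the Ptgs2 points spread from 5.62 to 41.4.

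Release of arachidonic acid was represented by Pla2g4a (ENSMUSG00000056220.14, chromosome 1, 149829618 to 149961290, minus strand). It was at 2.94, 2.47 and 5.07 TPM in replicates 1, 2 and 3, a mean of 3.49 ± 1.39, or 5.53 by posterior mean TPM. Replicate 3 was highest on this scale, but the expected counts of 199, 128 and 126 gave 12.0, 9.23 and 8.90 CPM, where replicate 1 was highest. The order of the libraries for this gene thus depended on the scale. The gene lies 138.741 kb from Ptgs2, with 3 annotated genes between them.

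The cyclooxygenase genes had means that differed by less than their spread. Ptgs1 (ENSMUSG00000047250.13, chromosome 2, 36230426 to 36252272, plus strand) was at 13.1, 23.0 and 23.2 TPM, a mean of 19.8 ± 5.76. Ptgs2 (ENSMUSG00000032487.8, chromosome 1, 150100031 to 150108227, plus strand) was at 10.2, 5.62 and 41.4 TPM, a mean of 19.1 ± 19.5. Replicate 3 held most of the Ptgs2 signal, and replicate 2, which shared the upper end for Ptgs1, was the lowest for Ptgs2. On the log2(TPM + 0.1) scale Ptgs2 minus Ptgs1 was -0.36, -2.01 and 0.83, a mean of -0.51 ± 1.43. Ptgs2 was below Ptgs1 in 2 of 3 libraries, and an exact two-sided sign-flip test gave p = 0.75. With 3 libraries that test cannot go below 0.25. The near-equal means hold for TPM summed over all transcripts of a gene. On coding transcripts Ptgs1 was at 3.86 ± 1.99 TPM and Ptgs2 at 19.1 ± 19.5. Ptgs2 has no annotated noncoding transcript, so all of its TPM counts as coding by annotation. These coding values therefore do not compare like with like. Noncoding Ptgs1 transcripts of 573, 663 and 697 nt held 2.44, 5.37 and 3.04 TPM, and TPM weighs counts on short transcripts more. Mean CPM, which is not divided by length, was 37.2 for Ptgs1 and 93.4 for Ptgs2.

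Ptgs2 was well covered in every library. Its expected counts were 1211, 502 and 2417, and its scaled values 73.3, 36.2 and 171 CPM, a span of 4.72 times between lowest and highest. The authors' interval bounds for its TPM, at a level that the sources used here do not give, ran from 9.36 to 10.8, from 4.91 to 6.60 and from 36.6 to 40.3. These intervals do not overlap, although the TPM of replicate 3, 41.4, lies outside its own. Rescaled over protein-coding genes alone, Ptgs2 was at 64.7, 31.1 and 168 TPM, so the order of the libraries held. Without replicate 3 the mean was 7.92 TPM instead of 19.1. Ptgs1 spanned 31.4, 50.3 and 30.1 CPM, 1.67 times, with replicate 2 highest. The divergent gene Ptgs2os, a noncoding transcript on the minus strand whose RefSeq start lies 157 bp from that of Ptgs2, was at 0.14, 0.06 and 0.14 TPM, far below Ptgs2.

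Ptges, Ptges2 and Ptges3 carry the name prostaglandin E synthase and differed in level. Ptges3 (ENSMUSG00000071072.12, chromosome 10, 128058954 to 128077272, plus strand), also known as p23, a co-chaperone of Hsp90, was at 4.04, 5.45 and 6.70 TPM, a mean of 5.40 ± 1.33. In CPM it was the steadiest of the 10, at 7.39, 6.99 and 7.35. Ptges2 (ENSMUSG00000026820.5, chromosome 2, 32395896 to 32405772, plus strand), a membrane-associated form, was at 0.14, 1.52 and 0.47 TPM, a mean of 0.710 ± 0.721. Ptges (ENSMUSG00000050737.13, chromosome 2, 30889471 to 30929863, minus strand), the inducible microsomal enzyme usually paired with Ptgs2, was at 0.35, 0.43 and 0.64 TPM. Ptges3 was above both in every library, and the other two overlapped.

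Both low synthases rested on few reads. Ptges had expected counts of 25, 31 and 30, and Ptges2 had 18, 38 and 31. The TPM of Ptges2 spanned 10.9 times between libraries, but its CPM of 1.09, 2.74 and 2.19 only 2.51 times. In replicate 2 alone, 2.87 and 8.34 of its counts were placed on isoforms of 519 and 765 nt, against 4978 nt for the coding one, and TPM weighs counts on short isoforms more. Gm13400, a processed pseudogene inside Ptges on the same strand, was at 1.12, 3.30 and 3.01 TPM. The expected counts of Ptges were whole numbers in every library, so they show no reads split with another gene. Whether whole reads of Gm13400 were placed on Ptges was not tested. A pseudogene named after Ptges3, Ptges3-ps, was at 0.32, 0.38 and 0.88 TPM. The counts of Ptges3 itself were fractional, so its level is uncertain to that extent.

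Tbxas1, thromboxane A synthase (ENSMUSG00000029925.13, chromosome 6, 38875404 to 39084585, plus strand), was at 58.7, 80.0 and 88.2 TPM. Its mean lay above 97.9% of protein-coding genes. Its 3624, 3630 and 3098 expected counts gave 219, 262 and 219 CPM, a span of 1.20 times. The gene was thus both the most abundant of the 10 and among the steadiest. Its first 762 bp overlap Hipk2, a kinase gene on the minus strand at 35.9, 39.9 and 50.5 TPM, and the antisense gene 1700025N23Rik inside it was at 7.49, 7.19 and 11.5 TPM. The expected counts of Tbxas1 were whole numbers in every library, so they show no reads split with another gene. The sources used here do not say whether counting used strand. Whether reads of the overlapping genes were placed on Tbxas1 was not tested.

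Thromboxane synthase is also a platelet enzyme, so markers of that lineage were read beside it. Of 7 megakaryocyte and platelet markers, 5 were at 1 TPM or more in every library, and their summed TPM ranged from 20.4 to 37.9. Pf4 was the highest, at 9.37, 19.7 and 17.6 TPM, with Treml1 next. Ppbp, at 0.04, 0.11 and 0.09 TPM, and Gp1bb, at 0, 0.06 and 0.17, were near 0. In TPM both the summed markers and Tbxas1 were lowest in replicate 1. In CPM replicates 1 and 3 of Tbxas1 were level at 219, and Pf4 had expected counts of 61, 75 and 42. The part of platelet-lineage RNA in the Tbxas1 level was not tested.

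The leukotriene genes fell apart in level. Lta4h, leukotriene A4 hydrolase (ENSMUSG00000015889.8, chromosome 10, 93453411 to 93484875, plus strand), was at 20.7, 29.9 and 32.3 TPM, a mean of 27.6 ± 6.17, second of the 10. Alox5ap, which presents arachidonic acid to the lipoxygenase (ENSMUSG00000060063.9, chromosome 5, 149264767 to 149288153, plus strand), was at 2.43, 2.77 and 5.25 TPM, a mean of 3.48 ± 1.54. Alox5, the 5-lipoxygenase itself (ENSMUSG00000025701.12, chromosome 6, 116410077 to 116461178, minus strand), was at 0.69, 0.58 and 1.5 TPM, a mean of 0.923 ± 0.502. The ranges of Lta4h, Alox5ap and Alox5 did not overlap one another, so the enzyme that starts this branch had the lowest chromatin RNA level of the 3.

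Replicate 3 was highest in TPM for each of these 3 genes. In CPM, Lta4h was at 34.3, 42.9 and 31.2, Alox5ap at 4.12, 4.18 and 4.52, and Alox5 at 2.00, 1.73 and 3.04. Replicate 3 stayed highest for Alox5ap, by little, and for Alox5. The Alox5 values rested on 33, 24 and 43 expected counts. The authors' interval bounds for its TPM, 0.541 to 1.48, 0.539 to 1.52 and 1.20 to 2.84, overlapped. On the log2(TPM + 0.1) scale, Alox5 minus Ptgs2 was -3.71, -3.07 and -4.70 in replicates 1, 2 and 3. The mean was -3.83 ± 0.82, lower in 3 of 3 libraries, and the exact two-sided sign-flip p of 0.25 is the smallest the design allows.

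Reads near these genes limit what can be said of the low ones. March8, a ubiquitin ligase gene on the opposite strand, ends 537 bp from the end of Alox5 and was at 15.3, 15.6 and 24.1 TPM. Gm19719, an antisense gene inside Alox5ap, was at 1.35, 1.64 and 3.27 TPM. Whether reads of these neighbours enter the counts of Alox5 or Alox5ap was not tested.

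Other genes beside the 10 varied from silent to abundant. Parp12, an ADP-ribosyltransferase gene 1825 bp from Tbxas1, was at 28.0, 26.5 and 38.2 TPM, and Naca, next to Ptges3, at 4.63, 10.1 and 10.8 TPM. The long noncoding RNA gene Gm13431, 7492 bp from Ptgs1, was at 10.4, 10.2 and 15.5 TPM, and Gm43621, on the opposite strand inside Ptgs1, at 0.96, 1.33 and 1.3 TPM. Tor1b, beside Ptges, was at 4.88, 5.88 and 8.10 TPM, whereas Lcn2, an inflammatory gene beside Ptges2, was at 0, 0.07 and 0. The annotated neighbours of Pla2g4a on either side were at 0 TPM in every library, as was Gm9687 beyond the far end of Ptgs2.

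Ordered by mean TPM, the genes ran Tbxas1, Lta4h, Ptgs1, Ptgs2, Ptges3, Pla2g4a, Alox5ap, Alox5, Ptges2 and Ptges. Between neighbours in this order the ranges over libraries were apart only for Tbxas1 over Lta4h and for Alox5ap over Alox5. Lta4h was also above Ptgs1, Ptgs2 above Ptges3, and Ptges3 above Pla2g4a within each of the 3 libraries, although their ranges overlapped. The pairs Ptgs1 and Ptgs2, Pla2g4a and Alox5ap, Alox5 and Ptges2, and Ptges2 and Ptges changed places between libraries and do not differ beyond their spread. Ptgs2 took rank 4, 4 and 2.

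On the CPM scale Ptgs2 had the widest spread between libraries of the 10 genes; in TPM it was Ptges2, at 10.9 against 7.36 times. edgeR's biological coefficient of variation, which takes out counting noise and shrinks each gene toward the common trend, was 0.440 for Ptgs2, above 98.5% of the 15065 genes tested. Ptges2 followed at 0.323, above 93.1%. The other 8 lay between 0.183 (Tbxas1) and 0.263 (Alox5), and the median of the 10 was 0.216 against 0.210 over all genes tested. As plain ratios of highest to lowest CPM, the members had a median of 1.43 and all genes tested 1.41. The medians of the list were thus close to those of all genes tested, with Ptgs2 and Ptges2 at its upper end. The coefficient of Ptgs2 needs all 3 libraries. From 2 libraries it was 0.207 to 0.294, and the lowest of these was that of replicates 2 and 3, the libraries 4.72 times apart in CPM, so such values do not measure the spread of this gene.

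**Figure D2:**
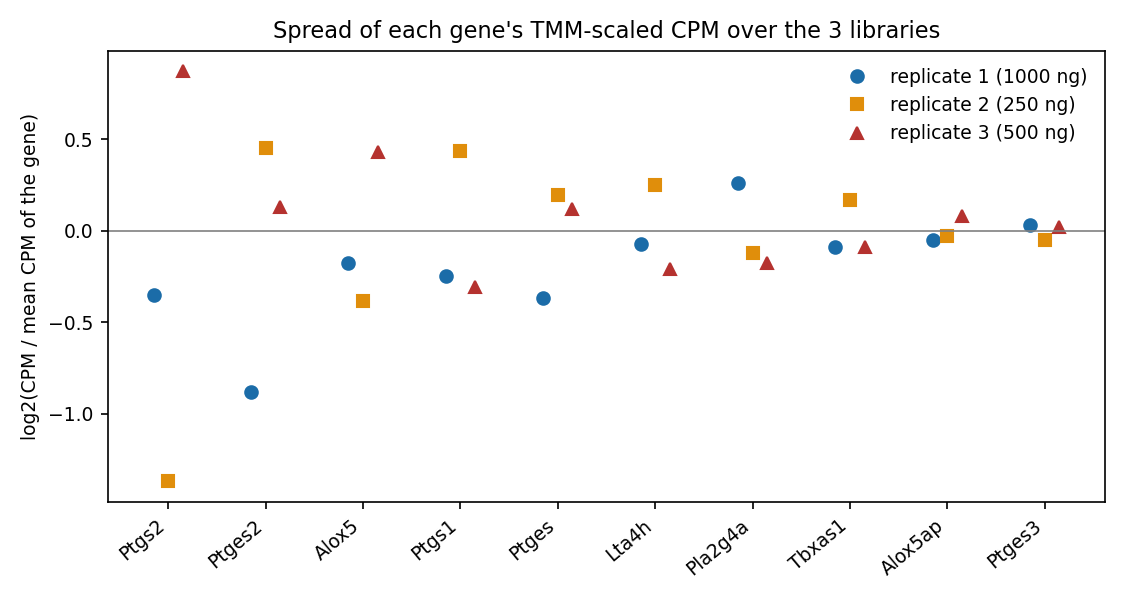
Deviation of each library from the gene's mean, as log2 of TMM-scaled CPM over mean CPM, ordered by the ratio of highest to lowest; points are libraries. Ptgs2 is highest in replicate 3 and lowest in replicate 2, while the libraries of Alox5ap and Ptges3 lie within 1.10 and 1.06 times of each other.

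Starting RNA was the 1 labelled difference between the libraries, so a slope on its log2 was fitted for every gene with edgeR's quasi-likelihood test. Of the 10 genes, 0 had an adjusted p below 0.05, where 88 of 15065 genes tested did (0.584%), 83 of them rising with more RNA and 5 falling. An unadjusted p below 0.05 was reached by 0 of the 10 and by 1017 genes in all. DESeq2 also called 0 of the 7 members to which it gave an adjusted p, and 0 of the 10 at an unadjusted p below 0.05. The fit has 1 residual degree of freedom, each amount was used once, and the amount and the replicate cannot be told apart.

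No single member passed this test. Ptges2 had the steepest, -0.65 (SE 0.31) log2 units per doubling of RNA, with an edgeR adjusted p of 0.754. Ptgs2 had 0.50 (SE 0.40) and an adjusted p of 0.966. Ptgs1 had -0.34 (SE 0.17) and an adjusted p of 0.764, and the other 7 lay between -0.28 (Ptges) and 0.19 (Pla2g4a). The Ptgs2 values did not follow the amount: the library from 500 ng was highest, that from 1000 ng in the middle and that from 250 ng lowest.

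The make-up of isoforms differed widely between the genes. Chromatin RNA is partly unspliced, and tables that count annotated exons can record such RNA as retained-intron transcripts, which keep an intron and are annotated as noncoding. Ptgs2 had 100% of its TPM on its full coding transcript of 4453 nt in every library. Alox5ap followed with 93.5% ± 9.15 on coding transcripts, and Ptges with 89.5% ± 18.1. None of these genes has an annotated retained-intron transcript, so their share of that type was 0 by annotation. Their high coding shares therefore do not show that their RNA was spliced. The share of Ptges depends on the tables: in the second deposited set, of kallisto layout, it was 32.3% coding. At the other end, Alox5 had 96.2% ± 6.60 of its TPM on retained-intron transcripts, and its coding transcripts held 11.4%, 0% and 0%. In replicates 2 and 3 none of the Alox5 signal was placed on a coding transcript.

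Tbxas1 and Lta4h, the highest genes, had 62.5% ± 9.19 and 64.6% ± 0.202 of TPM on retained-intron transcripts. In the kallisto-layout set these shares were 45.2% and 67.1%. For Lta4h the shares of the 3 libraries lay within 1 percentage point of each other. Most of its retained-intron transcripts are short, and by counts the coding transcripts of Lta4h held 64.8% ± 2.05. For Tbxas1, counts gave an even smaller coding share than TPM, 17.2% ± 3.19. The split into types thus depends on whether length is taken into account.

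Ptgs1 differed from Ptgs2 here too. Coding transcripts held 18.9% ± 6.03 of its TPM, retained-intron ones 42.9% ± 2.11 and processed transcripts 38.1% ± 5.30. Ptges3 was split nearly evenly, with 52.1% ± 9.08 coding, and Pla2g4a had 60.0% ± 9.15, or 35.6% in the kallisto-layout set. Ptges2 was 100% coding in replicates 1 and 3 and 17.8% in replicate 2, for the short isoforms described above. Ptgs2 has no annotated noncoding isoform, so its unspliced RNA had no such entry to go to. Over the 6 members at or above 1 TPM with a noncoding isoform, the median noncoding share was 55.5%, against 51.3% over 7714 coding genes of that kind.

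**Figure D3:**
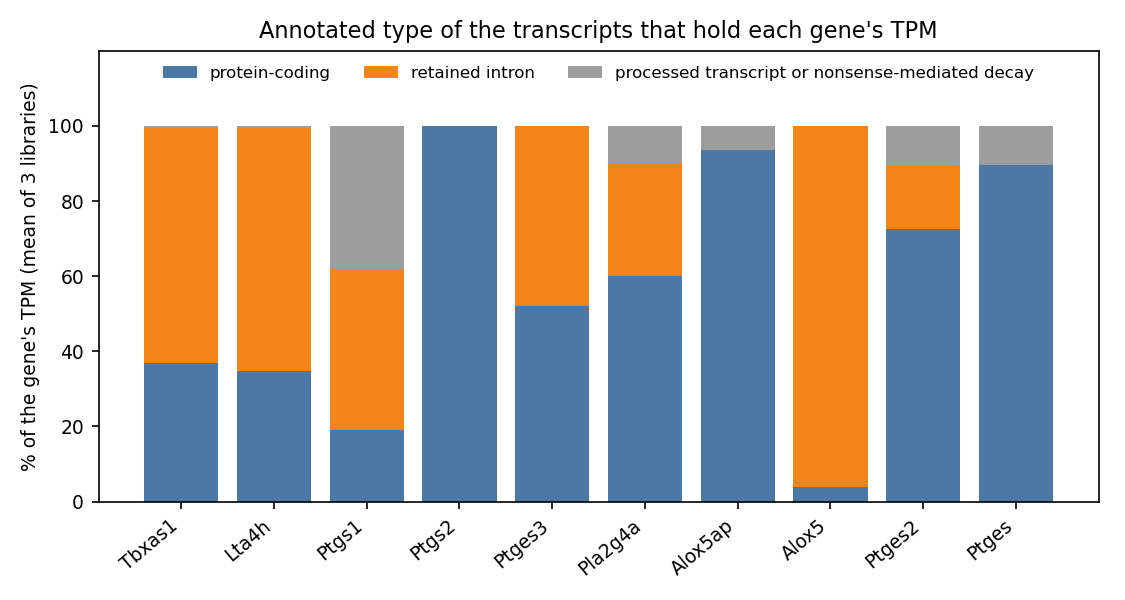
Share of each gene's TPM (mean of 3 libraries, %) on transcripts annotated as protein-coding, as retained intron or as other noncoding types, ordered by gene TPM. Ptgs2 is wholly coding, while retained-intron transcripts hold 62.5% of Tbxas1, 64.6% of Lta4h and 96.2% of Alox5.

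A second set of deposited tables, in a column layout like that of kallisto, gave higher means for all 10 genes, although Alox5 was lower there in replicates 2 and 3. Tbxas1 was again first at 128 TPM, and by its mean Ptgs2 moved to second place with 26.6, 12.1 and 97.1 TPM. That place rested on replicate 3, since Lta4h, at 30.6, 32.4 and 48.4 TPM, was above Ptgs2 in replicates 1 and 2. The ratio of mean TPM between both sets ran from 1.02 (Alox5) to 5.31 (Ptges). Of the 10 genes, 9 were at 1 TPM or more in every library there, against 51.6% of coding genes. The exception was Alox5, at 0.862, 0.551 and 1.42 TPM, which had the lowest mean of the 10 in that set. Ptges and Ptges2 passed there, with means of 2.51 and 2.08 TPM, so the order of the lowest genes depends on the tables. Ptgs2 was 2.37 times higher, and the tables differ in its isoforms: the kallisto-layout ones put 12.0, 5.66 and 45.5 TPM on a coding-annotated Ptgs2 transcript of 358 nt that held 0 counts in the other set. The order of the libraries for Ptgs2 was the same in both, with replicate 3 highest. The mean of Ptgs2 minus Ptgs1 turned positive, at 0.41 on the log2 scale, against -0.51 ± 1.43 in the gene tables. That shift is smaller than the SD. Ptgs1 was at 20.0, 25.2 and 26.4 TPM there, so Ptgs2 was above it in replicates 1 and 3 and below it in replicate 2. Only replicate 1 changed sign between both sets. Which cyclooxygenase gene had more chromatin RNA thus varied with the library, and in replicate 1 with the tables.

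**Figure D4:**
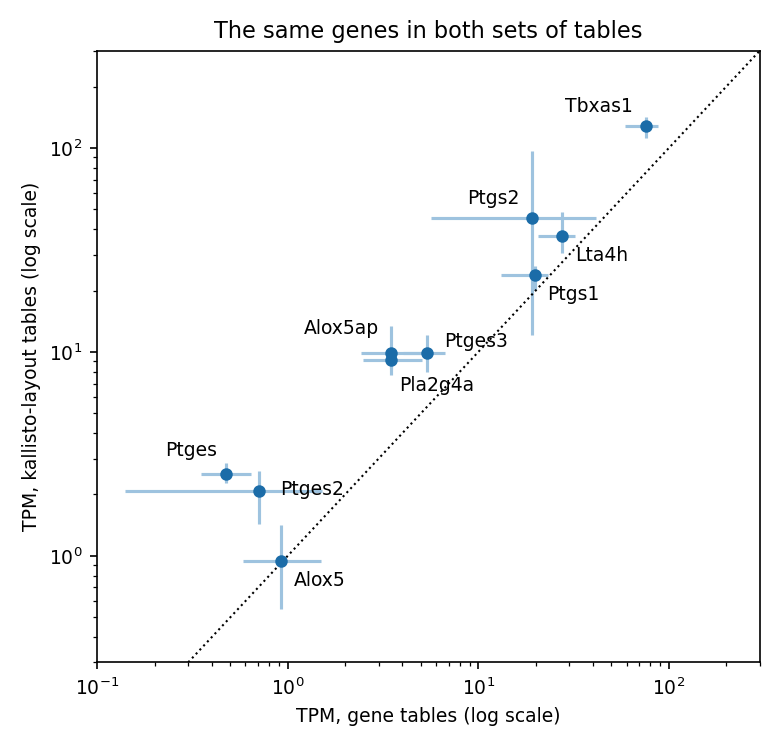
Mean TPM of the 10 genes in the gene tables (x, log scale) and in the kallisto-layout tables (y, log scale); lines span the lowest to highest of 3 libraries and the dotted line marks equal values. All points lie on or above the line, with Ptges farthest from it at a ratio of 5.31.

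Around the 10 genes, 59 further genes of eicosanoid release, synthesis, breakdown, transport and sensing were read. Of these, 21 were at or above 1 TPM in every library, a limit reached by 40.6% of all protein-coding genes. In all 3 libraries 13 had 0 counts, and the median of the 59 was 0.323 TPM. The slope test held 30 of the 59 and called 0 in either direction, where it called 0.584% of all genes tested. At that share, 0 of 30 says nothing particular about these genes. Synthesis beyond the 10 was led by Hpgds, hematopoietic prostaglandin D synthase, at 137, 137 and 273 TPM, above every one of the 10 genes. Of the 6 other prostanoid synthases, 3 passed 1 TPM: Hpgds, Akr1b3 at 4.03 ± 1.55 and Fam213b at 2.55 ± 0.484. Ptgds, the lipocalin-type prostaglandin D synthase, and Ptgis, the prostacyclin synthase, had 0 counts.

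Of 15 genes that release or recycle arachidonic acid, 7 passed 1 TPM in every library. Pla2g15, a lysosomal phospholipase, was highest at 14.2 ± 2.94 TPM, then Mgll, monoacylglycerol lipase, at 9.97 ± 1.12 and Acsl4, which couples arachidonate to coenzyme A, at 8.62 ± 1.57. Pla2g4a, at 3.49 TPM, was below all of these, and Pla2g4e had 0 counts. Of 13 further leukotriene and lipoxygenase genes only Dpep2, a dipeptidase that makes leukotriene E, and Ggt5, which makes leukotriene D, passed 1 TPM in every library, at 32.6 ± 9.55 and 1.59 ± 0.194. The symbol Dpep2 has 2 entries, of which the higher is given. Ltc4s, leukotriene C4 synthase, was at 1.21, 0.92 and 1.66 TPM. Alox8, Alox12b, Alox12e and Ggt1 had 0 counts.

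Breakdown was led by Cyp4f13, a family member of the leukotriene B4 hydroxylases, at 24.9, 33.1 and 48.8 TPM. Ptgr2, a prostaglandin reductase, was at 10.5 ± 3.38, and Cyp4f18 and Ptgr1 also passed 1 TPM in every library. Cyp4f14 and Ephx2 had 0 counts. Export was represented by Abcc1, a carrier of leukotriene C, at 33.1, 36.9 and 43.7 TPM and Abcc4, a carrier of prostaglandins, at 5.67 ± 1.19, whereas the uptake carrier Slco2a1 had 0 counts.

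Receptors were mostly low. Of 9 prostanoid receptor genes, 2 passed 1 TPM in every library, Ptger1 at 10.3 ± 2.96 and Ptger4 at 5.0 ± 2.46, both receptors of prostaglandin E, and both with fractional counts, that is, with reads shared between entries. Ptgir, the prostacyclin receptor, came next at 1.10 ± 0.182, and Ptgdr had 0 counts. Of 6 receptors for leukotrienes and lipoxins, only Cysltr2 passed, at 2.33 ± 0.688, ahead of Cysltr1 at 0.650 ± 0.446. Ltb4r1, the high-affinity receptor of leukotriene B, and Oxgr1 had 0 counts. Counts of 0 mean that no signal was detectable at this depth in the gene tables. Of the 59, 28 passed 1 TPM in every library of the kallisto-layout set, as did 51.6% of all protein-coding genes. Slco2a1 and Pla2g4e had means of 1.46 and 1.32 TPM there.

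**Figure D5:**
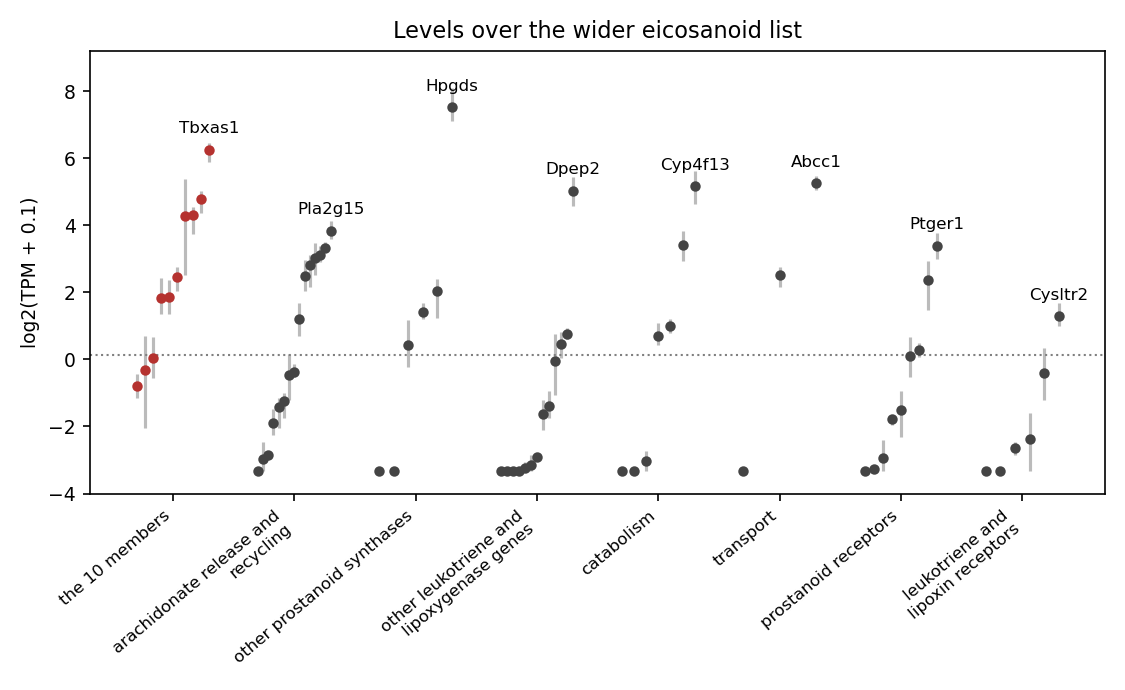
Mean level as log2(TPM + 0.1) of the 10 genes (red) and of the 59 further genes by sublist (grey); lines span the lowest to highest of 3 libraries, the dotted line is 1 TPM, and the highest gene of each sublist is named. Hpgds lies above all 10, and points at the bottom are genes with 0 counts.

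Markers of other cell types than macrophages and platelets were low in the gene tables. Of 8 mast cell and basophil markers, 0 passed 1 TPM in every library, 6 had 0 counts, and their summed TPM ranged from 0.19 to 0.77, with Kit highest. Of 10 neutrophil markers 0 passed, with Ngp highest and a summed TPM of 1.46 to 3.03. Likewise 0 of 5 eosinophil, 0 of 5 B cell, 0 of 5 T cell and 0 of 6 fibroblast markers passed, led by Ccr3, Cd79b, Cd247 and Col3a1. The kallisto-layout set differed for 3 of these lists, with 1 marker each at 1 TPM or more in every library: Il5ra of eosinophils (mean 1.16 TPM) and Cd3d of T cells (13.1 TPM), both at 0 counts in the gene tables, and Col1a1 of fibroblasts (1.57 TPM). The 10 macrophage markers summed to 642 to 1091 TPM. In bulk RNA, fewer cells of a type and less RNA per cell cannot be told apart.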

How the data were processed

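Ribosome-depleted RNA of the chromatin fraction was sequenced in 3 libraries, all of the same group. Per the labels and file headers, expected counts and TPM per gene and transcript, deposited by the authors in a layout like that of RSEM, refer to mm10 and GENCODE M21. The authors also deposited each isoform's percent of its gene, interval bounds of TPM (treated as a signal column) and kallisto-layout tables with estimated counts and TPM. The sources used here do not give tool names, the aligner or strand use. Such tables count annotated transcripts, so intronic reads outside them are lost.

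Symbols, types and coordinates came from M21 on GRCm38. Entries outside annotated genes (1.08%, 0.299% and 0.332% of expected counts) were left out of tests. Totals of the kallisto-layout tables were 25111219, 27695628 and 21058255. Expected counts were rounded for edgeR 4.0.16 (R 4.3.3): TMM, filterByExpr, a quasi-likelihood slope on log2 starting RNA, Benjamini-Hochberg adjusted p below 0.05 over all genes tested, and tagwise coefficients of variation. Levels use log2(TPM + 0.1) and a limit of 1 TPM. Alternatives covered the kallisto-layout tables, posterior mean TPM, coding-only TPM, pseudocounts of 1 and 0.01, limits of 0.5 and 5 TPM, no filter, DESeq2 1.42.0 and its size factors, and each replicate left out. Promoter motifs were searched in Python 3.11.15; the motif list and the window of 280 bases were chosen after a search of 250 bases. Isoform shares were recomputed from TPM.

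The 10 genes and all lists were chosen with earlier results of these data known. Named were all 10, up to 3 highest and all 0-count genes per sublist, each gene where 5 or fewer are counted, the highest of each marker list, and overlapping or adjacent genes; Treml1, Ppbp and Gp1bb and the genes under other observations were added after their values were seen. Replicates are separate biosamples that point to 1 donor entry, so no p-value measures a spread between donors. Those of the sign-flip tests rest on the spread between these samples. The slope test has 1 residual degree of freedom per gene, so its p-values rest largely on the spread of all genes tested.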

Additional observations from a re-analysis of the deposited data

How the results depend on the processing

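In the kallisto-layout tables the median level of the members was 3.32, Alox5 minus Ptgs2 was -5.01, the median coefficient of variation was 0.195, the median noncoding share of the 10 members was 66.1% instead of 44.0%, and 158 genes had a slope. Rescaling over coding genes adds 2.66, 2.47 and 2.02 log2 units in replicates 1, 2 and 3 and gave a median level of 4.47. A limit of 5 TPM left 4 members, a pseudocount of 1 put Alox5 minus Ptgs2 at -2.96, and testing without a count filter called 284 genes instead of 88. Median coefficients from 2 libraries were 0.207 to 0.234, but with so few libraries they are pulled toward the trend over genes and do not show what 1 replicate contributes. The number of members with a slope was 0 in each of these fits. More genes enter the test without a filter; the cause of the other shifts was not tested. Slopes were not stable in sign: Ptges3 was -0.075 in the kallisto-layout tables, and without 1 replicate slopes ran from -0.075 to 0.42 for Pla2g4a, -0.76 to 0.053 for Ptgs1, -1.22 to 2.21 for Ptgs2, -0.58 to 0.74 for Alox5, -0.14 to 0.086 for Alox5ap and -0.48 to 0.13 for Lta4h. Fits on 2 libraries leave no residual degrees of freedom, so they give no count of called genes. Ptgs2 minus Ptgs1 ran from -1.19 to 0.24. The Ptgs2 promoter held 1 of the 6 motifs in the 250 bases before the start and 3 in the 280 searched. Depth limits Ptges, Ptges2 and Alox5 most. No paired analysis was possible because there is 1 group.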

Other observations

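Other early genes of inflammatory activation, chosen after their values were seen, did not share 1 order over the libraries. Fos, a transcription factor gene, was at 234, 456 and 526 CPM in replicates 1, 2 and 3, with replicate 3 highest as for Ptgs2 and replicate 1 lowest. Tnf, a cytokine gene, was at 402, 139 and 214 CPM, and Il1b, another, at 311, 70.5 and 125 CPM, both highest in replicate 1 and lowest, like Ptgs2, in replicate 2. Nfkbia, an inhibitor of NF-kB, was at 537, 318 and 392 CPM, in the same order as Tnf. Cd14, a co-receptor for lipopolysaccharide, was at 182, 144 and 336 CPM, the order of Ptgs2. Ptgs2os2, a long noncoding RNA gene on the same chromosome as Ptgs2, was at 1.39, 0.721 and 1.55 CPM. Its libraries fell in that order too, but replicates 1 and 3 were close and the level was low. Few orders are possible over 3 libraries, and the share of all genes with the order of Ptgs2 was not counted. A shared order therefore links none of these genes to Ptgs2.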
